A study of Mus musculus with 6 samples.

Results

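The Myc and Max network is the set of basic helix-loop-helix leucine zipper proteins built around Max. Its members were taken by gene symbol, namely the paralogs Myc, Mycn and Mycl, their partner Max, and the antagonists Mxd1, Mxd3, Mxd4, Mxi1, Mnt and Mga. Of these 10 genes, 8 were among the 18001 genes of the expression table, and Mycn and Mycl were not in the table by symbol or by Ensembl identifier. The network was followed by poly(A) RNA sequencing in NIH/3T3 cells, an established line of immortalised mouse fibroblasts. The cells were harvested 48 h after transfection with siRNAs against Aldoa (siAldoa) or with non-targeting siRNAs (siCtrl). Each group had 3 libraries of the same cell line, called replicates 1 to 3. Aldoa encodes the glycolytic enzyme aldolase A, and the study asked whether its loss lowers the expression of ribosome biogenesis genes.

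Max does not activate genes by itself but dimerises with the other members, and the dimers compete for E-boxes, short DNA motifs with the core CACGTG. Dimers of Max with a Myc paralog recruit coactivators and raise the transcription of genes for ribosome production, nucleotide synthesis and the cell cycle. Dimers with the Mxd proteins or Mnt recruit the Sin3 corepressor with histone deacetylases, and Mga connects Max to the polycomb complex PRC1.6. In fibroblasts, Myc is known as an early growth factor response gene, and Mxd proteins accumulate in many cells that leave the cell cycle.

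Aldoa was measured at 522, 536 and 545 CPM (read counts scaled to a common library size) in the siCtrl libraries and at 62.9, 69.2 and 72.0 CPM in the siAldoa libraries, which is 12.7% of the control mean. The libraries held between 3692341 and 3771129 reads in genes, so 1 read was worth 0.262 to 0.274 CPM. In each group, replicate 3 stood apart from the other two replicates, and called members and list counts are therefore also given without it. All 10 listed fibroblast markers were in the table, with a summed level of 15137 to 15684 CPM in siCtrl and 12670 to 13372 CPM in siAldoa. They did not move together, since 5 fell (Col1a1, Col1a2, Vim, Sparc and S100a4) and 4 rose (Fn1, Pdgfra, Pdgfrb and Thy1). Of 16 markers of epithelium, endothelium, leukocytes, neural cells and muscle, 9 were in the table, and none of these was at 0 in all libraries. Their summed level was 18.0 to 21.3 CPM in siCtrl and 8.90 to 13.1 CPM in siAldoa. The epithelial markers Cdh1 and Krt8, 2 of the 9 (22.2%), were called lower. Krt8 was at only 1.35 CPM in siCtrl and 0.36 CPM in siAldoa on average, and its groups overlapped. Over all genes of the table, 10.0% fell and 10.4% rose. The part of either marker list in the results was not tested. The study calls the replicates biological, but the labels do not name separate cultures, and p-values measure the spread between these libraries. Spike-in RNA was added in the lysis buffer for replicate 1 and after extraction for replicates 2 and 3, so handling differed by replicate in both groups.

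Among the 8 members in the table, Myc fell, Mxd4 and Mxi1 rose, and the other 5 did not pass the test. The 1 member that fell compares with 10.0% of all genes of the table that fell, and the 2 that rose compare with 10.4% that rose. The median log2 fold change of the 8 members was 0.10, and that of all genes was -0.0023. These calls are limma tests on log2(CPM + 1) at an adjusted p under 0.05, with p-values adjusted over all 18001 genes. Fold changes are siAldoa minus siCtrl on that scale, which understates changes of weakly expressed genes.

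**Figure D1:**
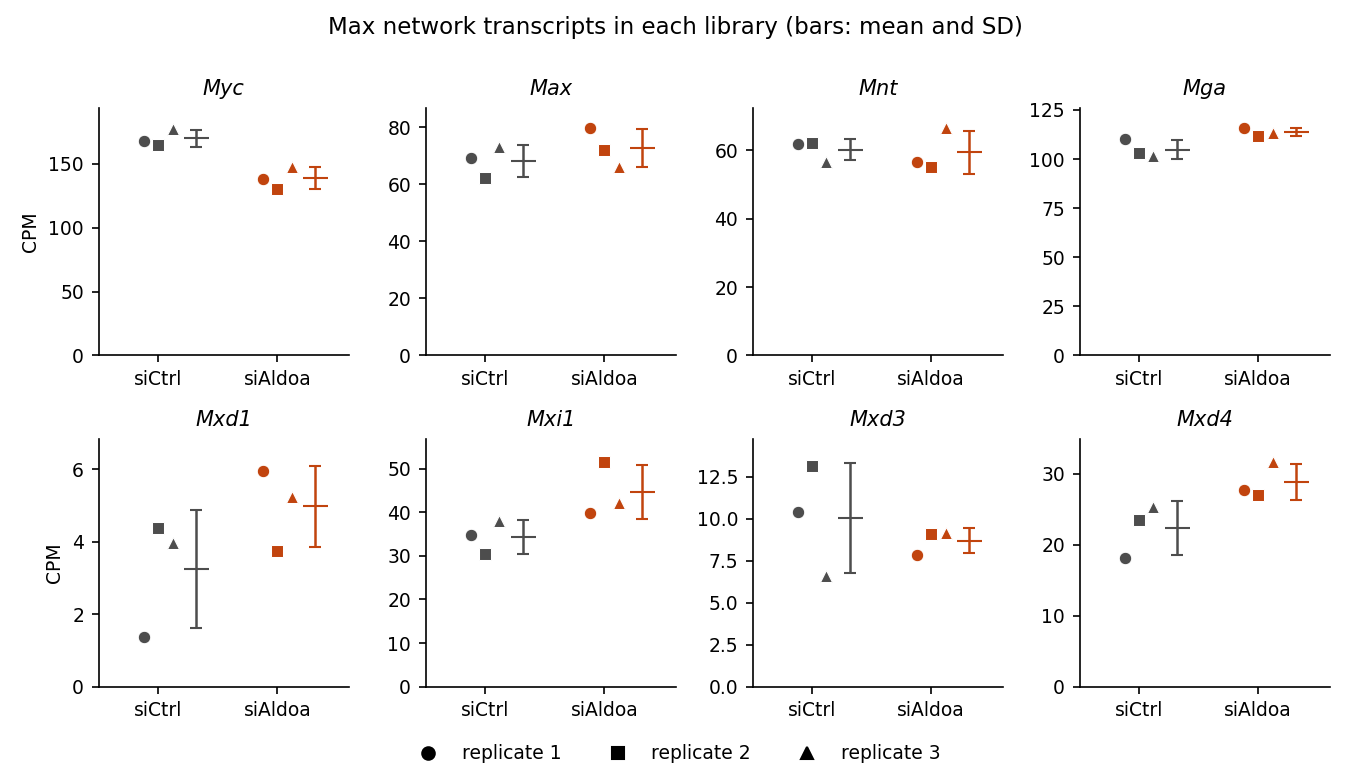
CPM (vertical axes, starting at 0) of the 8 network members in the 3 siCtrl (grey) and 3 siAldoa (orange) libraries. Symbols mark the replicate, and the bars give the mean and SD of each group. All 3 siAldoa libraries lie below all siCtrl libraries for Myc and above them for Mxd4, Mxi1 and Mga.

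Myc (ENSMUSG00000022346, chr15:61985391-61990374 of GRCm38, plus strand) is the activator of the network. Its transcript was at 168, 165 and 177 CPM in siCtrl replicates 1 to 3 and at 138, 130 and 148 CPM in siAldoa replicates 1 to 3. Every siAldoa library was below every siCtrl library. The mean fell from 170 ± 6.58 to 139 ± 8.63 CPM (SD, n = 3 libraries each), to 81.7% of the siCtrl level, a log2 fold change of -0.29 (SE 0.055, 95% interval -0.40 to -0.18) with a limma adjusted p of 0.000404. The values rested on 488 to 670 reads per library. The exact two-sided permutation test gave p = 0.1, the smallest value that 3 against 3 libraries allow.

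Of 18 alternative analyses, 4 leave the fold change as it is by construction (TMM scaling, no trend, the replicate block and the filter on mean CPM), and Myc was lower in the other 14. It passed the threshold in 15 of the 18, or in 14 of 17 without TMM scaling, which repeats the main result. Without replicate 3 the log2 fold change was -0.30 with a limma adjusted p of 0.041. The adjusted p rose to 0.067 without replicate 1, to 0.052 without replicate 2 and to 0.079 in limma without the mean-variance trend. CPM are shares of the RNA sequenced. In such bulk samples, fewer cells with a transcript and less of it per cell cannot be told apart.

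Max (ENSMUSG00000059436, chr12:76937269-76962201, minus strand) is the shared partner of the other members. It was at 69.3, 62.1 and 73.0 CPM in siCtrl and at 79.6, 72.2 and 66.2 CPM in siAldoa, so the groups overlapped. Its log2 fold change was 0.09 (SE 0.079, 95% interval -0.07 to 0.25, limma adjusted p = 0.48). Max did not pass the threshold in any of 18 alternatives. It shares stretches of 245 bases at 90.6% to 91.4% identity with 3 processed pseudogenes of the table, Gm3774, Gm45596 and Gm7786, which together with counting rules not stated make its level slightly uncertain. None of the 3 exceeded 2.97 CPM in any library.

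Mxd4 and Mxi1, of the Mxd family of repressors, both rose to 129% of the siCtrl mean. Mxd4 (chr5:34173883-34187720, minus strand) was at 18.1, 23.5 and 25.4 CPM in siCtrl and at 27.8, 27.0 and 31.7 CPM in siAldoa, with no overlap. The mean was 22.3 ± 3.80 against 28.8 ± 2.51 CPM (SD, n = 3), or 129% of the siCtrl level, and the log2 fold change was 0.36 (SE 0.13, 95% interval 0.10 to 0.63, limma adjusted p = 0.045). Mxi1 (chr19:53310518-53375810, plus strand), also called Mxd2, was at 34.8, 30.4 and 38.1 CPM in siCtrl and at 39.9, 51.6 and 42.2 CPM in siAldoa. Its siAldoa replicate 2 was the highest library, and the groups again did not overlap. The mean was 34.4 ± 3.88 against 44.6 ± 6.18 CPM, also 129% of the control, with a log2 fold change of 0.36 (SE 0.11, 95% interval 0.14 to 0.58, limma adjusted p = 0.016).

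Both genes were higher in the 14 alternatives that recompute the fold change, but the calls passed less often than that of Myc. Without TMM scaling, Mxd4 passed the threshold in 4 and Mxi1 in 7 of 17 alternatives. DESeq2 on the recovered reads gave adjusted p-values of 0.16 for Mxd4 and 0.068 for Mxi1, and edgeR's quasi-likelihood test gave adjusted p-values of 0.041 and 0.011. Without replicate 3 the limma adjusted p was 0.22 for Mxd4 and 0.16 for Mxi1. With the replicate block the limma adjusted p was 0.054 for Mxd4 and 0.056 for Mxi1, so neither passed. Of the 6 single libraries, leaving out siCtrl replicate 3 alone kept the call of Mxd4 (log2 fold change 0.46). Its log2 fold change was lowest without siCtrl replicate 1 (0.23, limma adjusted p = 0.25). Without siAldoa replicate 1, 2 or 3 the limma adjusted p of Mxd4 was 0.11, 0.090 and 0.22, and without siCtrl replicate 2 it was 0.085. The log2 fold change of Mxi1 was lowest among single libraries without siAldoa replicate 2 (0.25, limma adjusted p = 0.16). It was 0.28 without siCtrl replicate 2 (limma adjusted p = 0.13), 0.37 without siCtrl replicate 1 (limma adjusted p = 0.065) and 0.40 without siAldoa replicate 3 (limma adjusted p = 0.059).

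Exons of Mxd4 overlap the antisense gene Gm42846 over 514 bases, 6.06% of its exon length. Mxi1 has a processed pseudogene of the table, Gm13735, with 90.4% identity over 679 bases. Mxi1 also shares 194 exon bases with Gm10197 on the opposite strand. Gm13735 was at 1.97 CPM in siCtrl and 2.92 CPM in siAldoa on average. The kit marks strand, but whether the counting used it is not stated.

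Mxd1 and Mxd3 had the fewest reads of the members. Mxd1 (chr6:86647042-86669161, minus strand), the founding Mxd repressor, was at 1.37, 4.38 and 3.97 CPM in siCtrl and at 5.94, 3.74 and 5.24 CPM in siAldoa. siCtrl replicate 1 stood below the rest with 5 reads, for which the exact Poisson interval is 1.62 to 11.7 reads. The other 5 libraries held 14 to 22 reads. Mxd1 had the largest log2 fold change of the members in absolute size, 0.57, with an SE of 0.29 and a 95% interval of -0.04 to 1.17 (limma adjusted p = 0.19). Without siCtrl replicate 1 it was 0.19, so a change was not detectable at this depth. Mxd3 (chr13:55325168-55329823, minus strand), which is known from cells in S phase, was at 10.4, 13.1 and 6.61 CPM in siCtrl and at 7.83, 9.09 and 9.16 CPM in siAldoa. The siCtrl libraries bracketed the siAldoa libraries, and the log2 fold change was -0.15 (SE 0.21, 95% interval -0.58 to 0.29, limma adjusted p = 0.70). Mxd3 shares 105 exon bases with Prelid1 on the opposite strand, a gene that itself fell by 0.27 on the log2 scale (limma adjusted p = 0.0012).

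Mnt and Mga, the large antagonists, did not pass the test. Mnt (chr11:74830920-74845725, plus strand), a repressor present in most dividing cells, was at 61.9, 62.1 and 56.6 CPM in siCtrl and at 56.7, 55.1 and 66.5 CPM in siAldoa. Replicate 3 was the lowest of the siCtrl and the highest of the siAldoa libraries. The log2 fold change was -0.02 (95% interval -0.19 to 0.15, limma adjusted p = 0.89), and its sign turned in 6 alternatives. Mga (chr2:119897228-119969581, plus strand), which also carries a T-box domain, was at 110, 103 and 101 CPM in siCtrl and at 116, 112 and 113 CPM in siAldoa. The groups did not overlap, but the log2 fold change of 0.12 (SE 0.058, 95% interval -0.0017 to 0.24) did not pass the test (limma adjusted p = 0.17). Stretches of 200 to 209 bases of Mga match 9 other genes at 90% to 93.0% identity, of which 5 were in the table, with Zdhhc20 the most abundant at 82.0 CPM in siCtrl and 83.0 CPM in siAldoa. Across the members, 1 was lower and 3 were higher in all siAldoa than in all siCtrl libraries, beside 17.1% and 16.7% of all genes.

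**Figure D2:**
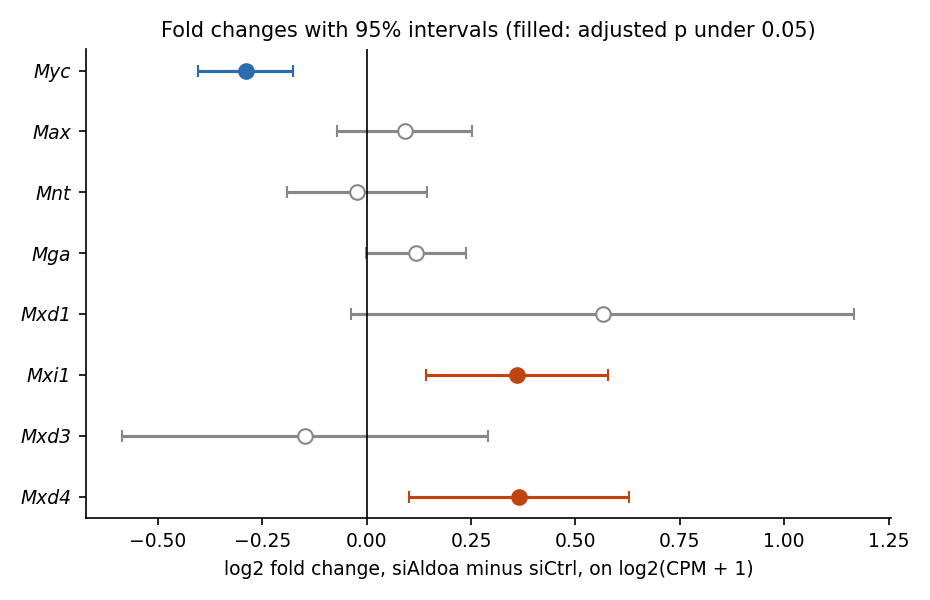
Log2 fold changes on log2(CPM + 1), siAldoa minus siCtrl (horizontal axis), of the 8 members with their 95% intervals from limma. Filled points passed an adjusted p under 0.05, which were Myc at -0.29, Mxi1 at 0.36 and Mxd4 at 0.36, and the widest interval belongs to Mxd1.

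**Figure D3:**
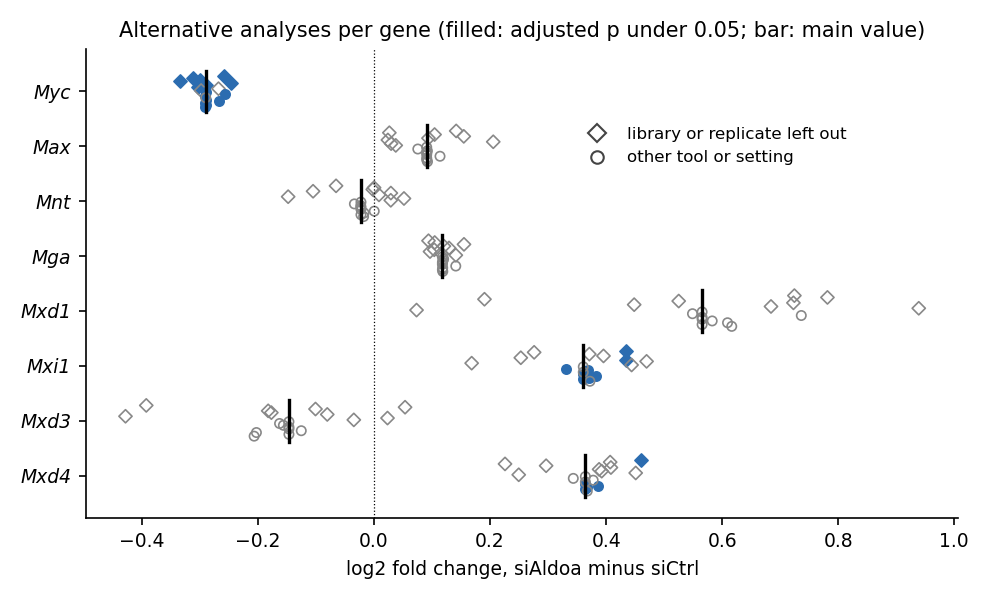
Log2 fold changes (horizontal axis) of each member under 18 alternative analyses, with diamonds for libraries or replicates left out and circles for other tools or settings. Filled symbols passed an adjusted p under 0.05, and bars give the value of the main analysis. Myc stayed between -0.34 and -0.25, whereas Mxd1 ranged from 0.07 to 0.94.

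Levels of different members were compared as CPM per kilobase of annotated exons. Myc was the most abundant member in both groups, with 62.5 ± 2.42 CPM per kb in siCtrl and 51.1 ± 3.18 in siAldoa. Max followed with 18.9 ± 1.54 and 20.2 ± 1.86 CPM per kb, and Mnt with 13.0 ± 0.672 and 12.8 CPM per kb. Below them stood Mga (6.84 in siCtrl), Mxi1 (5.04), Mxd3 (4.24), Mxd4 (2.63) and Mxd1 (0.458 CPM per kb), and this order of means was the same in siAldoa. The libraries of neighbours in this order overlapped in siCtrl for Mxi1 with Mxd3 and for Mxd3 with Mxd4. In siAldoa they overlapped for Mga with Mxi1 and for Mxd3 with Mxd4. Exon lengths are unions over annotated transcripts, so a gene that uses a short transcript is underestimated.

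The siAldoa libraries held less Myc transcript relative to its antagonists. The summed level of the 6 antagonists per unit of Myc was 0.525, 0.553 and 0.472 in siCtrl replicates 1 to 3 and 0.649, 0.715 and 0.668 in siAldoa. The groups did not overlap, with means of 0.517 ± 0.0413 and 0.677 ± 0.0337 (SD, n = 3) and a difference of 0.39 on the log2 scale. Myc made up 66.0 ± 1.81% of the sum of Myc and its antagonists in siCtrl and 59.6 ± 1.19% in siAldoa. The antagonist sum itself was 32.4, 33.5 and 30.8 CPM per kb in siCtrl and 33.1, 34.3 and 36.3 in siAldoa, so these groups overlapped. Its means were 32.2 ± 1.38 CPM per kb in siCtrl and 34.6 ± 1.62 in siAldoa. Max per unit of Myc was 0.312, 0.285 and 0.311 in siCtrl and 0.434, 0.418 and 0.339 in siAldoa. The log2 difference in antagonists per Myc was 0.44 without scaling for length, 0.39 without Mga and 0.50 over the Mxd family alone. These ratios describe transcripts and were not tested, since they combine members whose fold changes were already known, and protein was not measured.

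**Figure D4:**
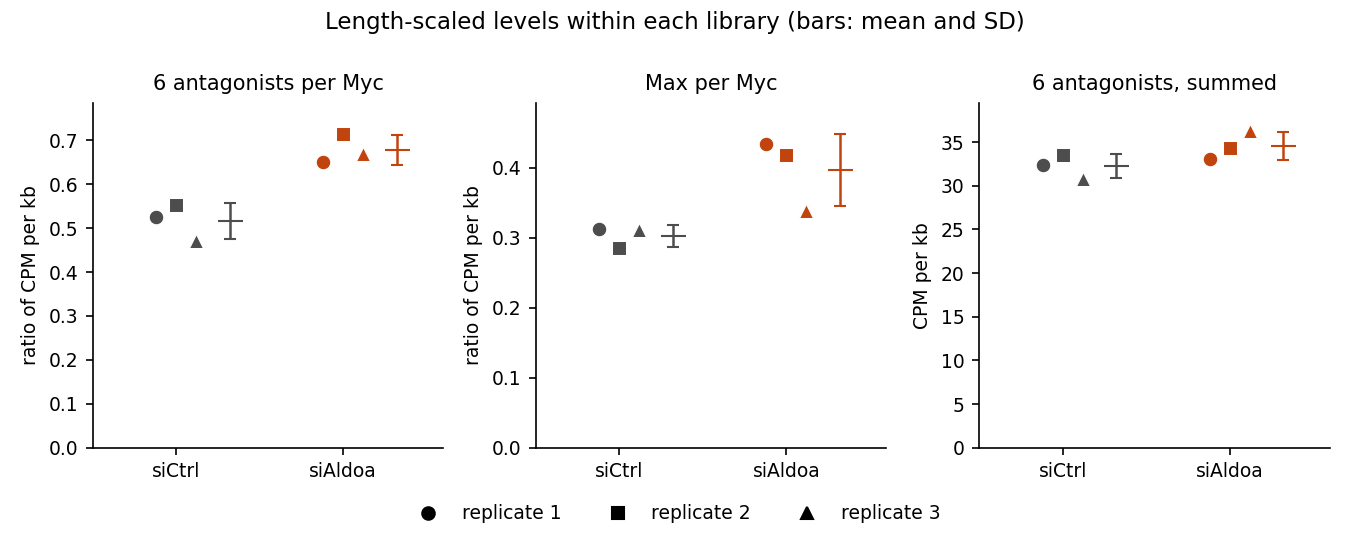
Ratio of the 6 summed antagonists to Myc, ratio of Max to Myc, and the antagonist sum (vertical axes, CPM per kb or ratios of it, starting at 0) in each library. Symbols mark the replicate and bars the mean and SD. The antagonists per Myc lie between 0.472 and 0.553 in siCtrl and between 0.649 and 0.715 in siAldoa.

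In the related Mlx branch, whose factors MondoA (Mlxip) and ChREBP (Mlxipl) sense glucose metabolites and dimerise with Mlx, no gene passed the limma test. The log2 fold changes were 0.10 for Mlx (adjusted p = 0.54) and 0.09 for Mlxip (adjusted p = 0.35), and Mlxipl had at most 1 read in any library. The unadjusted limma p-values of the 3 genes were 0.32, 0.15 and 0.99. With edgeR none of the 3 passed either, nor did Mlx or Mlxip with DESeq2, which gave Mlxipl no adjusted p.

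Genes around the network were described with lists written from general knowledge, but chosen with earlier results of these data known. Of 67 genes that Myc is known to activate, 65 were in the table, and 39 of them (60.0%) fell, beside 10.0% of all genes. Only 3 (4.62%) rose, beside 10.4% of all genes, and 58 had a fold change below 0. The median log2 fold change of the list was -0.22. Expression level, which affects how often a gene passes the test, was not matched between the lists and all genes. Without siCtrl replicate 1, 23 of the genes fell. Over all 18001 genes, at most 1371 fell in any fit with libraries left out. Without replicate 3 of both groups, 16 of the listed genes (24.6%) fell, beside 2.89% of all genes in that fit. Ribosome assembly genes, the group the study set out to examine, make up 28 of the 65, so the list is not independent of what was already known of these libraries.

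The genes of this list that fell came from several functions. Among the 28 ribosome assembly genes, 21 fell and 1 rose, beside 10.0% and 10.4% of all genes. Nop56, a core protein of box C/D snoRNPs, fell from 312 ± 14.4 to 213 ± 8.67 CPM (log2 fold change -0.54, limma adjusted p = 7.6e-09). Wdr43, a small subunit processome protein, fell from 252 ± 7.45 to 168 ± 10.8 CPM (-0.58, limma adjusted p = 1.0e-08). Imp4, of the same processome, rose from 50.7 ± 0.794 to 64.6 ± 2.96 CPM (0.34, limma adjusted p = 0.0015).

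Of 9 genes of DNA replication and the cell cycle, 6 fell, beside 10.0% of all genes. Ung, the uracil-DNA glycosylase, showed the lowest fold change of the list, from 30.9 ± 1.68 to 13.7 ± 1.67 CPM (log2 fold change -1.13, limma adjusted p = 5.9e-07). Mcm5, a subunit of the replicative helicase, fell from 214 ± 4.80 to 142 ± 5.45 CPM (-0.59, limma adjusted p = 5.5e-09). Of 12 metabolic and transport genes, 6 fell and 2 rose, beside 10.0% and 10.4% of all genes. The 2 that rose were hexokinase 2, Hk2, from 49.3 ± 4.06 to 68.6 ± 3.95 CPM (0.47, limma adjusted p = 0.00011), and the sorbitol dehydrogenase gene Sord, from 65.0 ± 1.67 to 81.8 ± 4.57 CPM (0.33, limma adjusted p = 0.0011). Of 8 genes of mitochondria and their chaperones, 4 fell, and of 8 genes of translation and other functions, 2 fell. These compare with 10.0% of all genes, and groups of 8 are too small to tell a share of 2 from that.

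Of 15 genes that Myc is known to repress, 10 were in the table, of which 3 (30.0%) rose and 1 (10.0%) fell, beside 10.4% and 10.0% of all genes, so the share that fell was that of the table and the share that rose rests on 3 genes (median log2 fold change 0.14). Without replicate 3, 2 rose and 1 fell, beside 2.74% and 2.89% of all genes. Listed but not in the table were Cdkn1c, Cdkn2b, Cebpa, Ndrg2 and Txnip. Cdkn1a, the p21 inhibitor of cyclin-dependent kinases, rose from 182 ± 10.1 to 213 ± 6.85 CPM (0.23, limma adjusted p = 0.0019). Pdgfrb, the receptor of platelet-derived growth factor and also on the fibroblast marker list, rose from 22.2 ± 2.31 to 49.9 ± 3.64 CPM (1.14, limma adjusted p = 2.0e-08). Thbs1, an extracellular matrix glycoprotein, rose by 0.18. Cdkn2c, another inhibitor of cyclin-dependent kinases (p18), went the other way, from 166 ± 5.25 to 123 ± 5.84 CPM (-0.43, limma adjusted p = 2.2e-06).

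Of 23 cofactors of Myc, 3 (13.0%) fell, 4 (17.4%) rose and 16 were not called, with a median log2 fold change of 0.06. These shares were near the 10.0% and 10.4% of all genes. Without replicate 3, 0 fell and 1 rose by limma, beside 2.89% and 2.74% of all genes (3 and 5 at an unadjusted p under 0.05). Those that fell were Cdk9, the kinase of the elongation factor P-TEFb (-0.27), Cdc73 of the PAF complex (-0.25) and the helicase gene Ruvbl2 (-0.23). Those that rose were Zbtb17, encoding Miz1 through which Myc represses genes (0.42), Ccnt1, the cyclin of P-TEFb (0.32), and the acetyltransferase genes Crebbp (0.31) and Ep300 (0.30).

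Of 22 genes for turnover of the Myc protein, 18 were in the table, and 6 (33.3%) fell and 2 (11.1%) rose, beside 10.0% and 10.4% of all genes (median -0.07). Without replicate 3, 1 of them fell and 0 rose by limma, beside 2.89% and 2.74% of all genes (8 and 3 at an unadjusted p under 0.05). The list holds genes for stabilising as well as destabilising proteins. Listed but not in the table were Fbxw7, Ppp2ca, Stub1 and Trim32. Being listed, as Fbxo28 is, does not imply that a protein sets the level of Myc. Set and Cip2a, inhibitors of the phosphatase PP2A that destabilises Myc, fell by 0.50 and by 0.21, and so did the PP2A scaffold subunit gene Ppp2r1a by 0.18. Usp28, a deubiquitinase that protects Myc, fell by 0.42, the ubiquitin ligase gene Skp2 by 0.31 and Usp22 by 0.22. The F-box genes Fbxo32 and Fbxo28 rose by 0.76 and 0.27, with Fbxo32 at only 2.53 ± 0.902 CPM in siCtrl and 4.89 ± 0.834 CPM in siAldoa. Cip2a and Ppp2r1a were added to complete the count, after their values were seen.

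Among 18 corepressors of the antagonists, 2 (11.1%) fell and 4 (22.2%) rose, with a median of 0.04. These shares compare with 10.0% and 10.4% of all genes, and the share that fell was near that of the table. Ncor1 rose from 115 ± 5.63 to 145 ± 1.66 CPM (0.34, limma adjusted p = 7.0e-05), Ogt, the O-GlcNAc transferase, by 0.34, and the Sin3 complex genes Sin3b and Suds3 by 0.26 and 0.17. Rbbp7 and Hdac2 of the same complexes fell by 0.25 and 0.21. Of 11 PRC1.6 partners of Mga in the table, 2 (18.2%) fell, Cbx3 by 0.25 and again Hdac2, and 0 rose. The shares over all genes were again 10.0% and 10.4%. These counts rest on few genes, and E2f6 of the PRC1.6 list was not in the table. Without replicate 3 limma called 0 genes of either list, beside 2.89% of all genes that fell and 2.74% that rose. At an unadjusted p under 0.05 it then gave 2 lower and 3 higher corepressors, and 3 lower PRC1.6 partners.

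**Figure D5:**
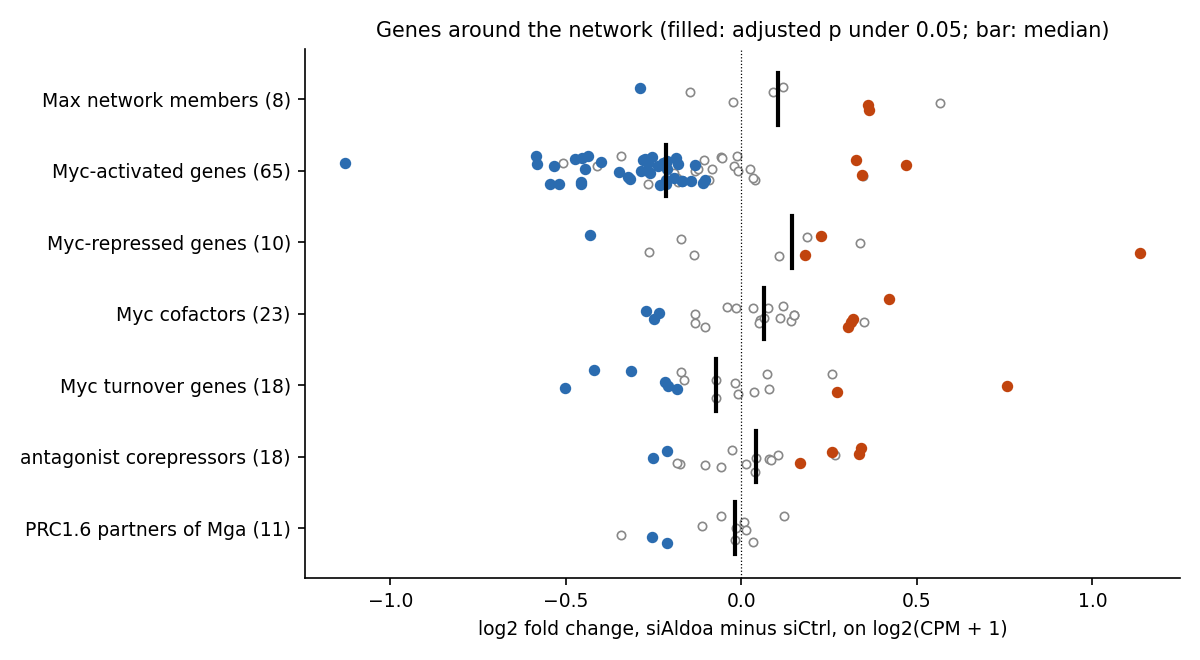
Log2 fold changes (horizontal axis) of the genes of each list, with the number of genes in the table in brackets and the list's median as a bar. Filled points passed an adjusted p under 0.05 (blue lower, orange higher). Of the Myc-activated genes 39 of 65 are filled on the lower side, while the medians of the other lists lie between -0.07 and 0.14.

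E-boxes were searched as CACGTG, which reads the same on both strands, in RefSeq promoters of GRCm38.p6 from 250 bases before to 50 bases after each gene start. The motif was in 2349 of 32851 promoters (7.15%) and in 9.25% of those of the table's genes. Counted by gene, 8.09% of all genes and 10.98% of the table's genes held it. Promoters were found for 9 of the 10 members, without an entry for Myc, and 3 of the 9 genes held the motif. The sequences of these 3 members and of 2 named activated genes that moved in opposite directions are shown on the strand of the gene, with the E-box in capitals.
Max, chr12:76962234-76962263, minus strand: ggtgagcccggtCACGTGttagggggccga
Mnt, chr11:74830789-74830818, plus strand: ccccacccaagcCACGTGtgcgcgcgcggt
Mxd4, chr5:34187912-34187941, minus strand: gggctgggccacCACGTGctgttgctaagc
Wdr43, chr17:71616220-71616249, plus strand: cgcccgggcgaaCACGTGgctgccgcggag
Imp4, chr1:34439696-34439725, plus strand: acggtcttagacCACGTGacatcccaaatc

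The motif began 3 bases before the RefSeq start in Max, 123 before it in Mnt and 219 before it in Mxd4. The gene coordinates of these members given above come from the GENCODE annotation, whose starts differ from the RefSeq ones. Of these 3 members, Mxd4 rose and the other two did not pass the test, with log2 fold changes of 0.09 for Max and -0.02 for Mnt. Among the Myc-activated genes, 17 of the 60 with a promoter entry held the motif. Of the 16 such genes that were also in the table, 11 (68.75%) fell and 1, Imp4, rose (median log2 fold change -0.19). Of 42 without the motif in this window, 23 (54.8%) fell and 2 rose (median -0.23). Over all genes of the table, 14.2% with the motif and 10.3% without it fell. The shares that rose were 15.5% and 11.9%. The difference between genes with and without the motif was not tested. Cdk4, singled out after its values were seen, held 4 copies of the motif, and it fell from 442 to 382 CPM on average (log2 fold change -0.21, limma adjusted p = 0.00041).

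The profile of Myc over the 6 libraries was most like those of Mrpl28, Glrx5 and Cyth3, with root mean square distances of 0.022, 0.024 and 0.026 on the log2 scale among 11529 genes of at least 5 CPM. For Mxd1, the nearest profiles were those of Gm44083, Snord104 and Gm7774, at distances of 0.20 to 0.23. Mxd1 itself had 5 to 22 reads per library, so its profile carries much counting error. Its means of 3.24 CPM in siCtrl and 4.97 CPM in siAldoa were under the 5 CPM set for the genes compared. Nearness among this many genes was not tested and does not imply a relation, for Myc as for Mxd1.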

How the data were processed

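Poly(A) RNA was sequenced from NIH/3T3 cells, 3 libraries per group, 48 h after transfection. Per the labels and the study's methods, the authors used Bowtie2 2.2.7 and mm10, drew equal numbers of reads per library at random and counted reads per gene. They deposited CPM of an effective library size. Annotation release, strand and multi-mapping settings are not given in the sources used here. A second deposited table holds the authors' own fold changes and p-values and was not used. Although the methods state a minimum of 12 reads, 1834 genes below it were in the table.

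Reads were recovered from the CPM steps, and 100% of values came out whole within 0.001 reads. Intervals from reads cover counting error only. limma 3.58.1 (R 4.3.3) compared the groups on log2(CPM + 1), with the mean-variance trend and Benjamini-Hochberg adjustment over all genes. edgeR 4.0.16 and DESeq2 1.42.0 on the reads, other scalings, a pseudocount of 0.1, a minimum mean of 1 CPM, no trend, the replicate block and libraries left out were alternatives. The tests were also run on simulated reads with random spread but no systematic difference between replicates. That run cannot show how they perform on these libraries, where replicate 3 stood apart. TMM factors of edgeR returned the fold changes of the deposited CPM.

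The members and gene lists were chosen with earlier results of these data known. Every member was named, and in each list the 4 lowest and 4 highest genes that passed the test with groups that did not overlap. Symbols of list genes absent from the table were looked up by Ensembl identifier, which found Cip2a. Exon lengths came from GENCODE M21 (17932 of 18001 identifiers matched), near-identical copies from blastn 2.17.0 and promoters from RefSeq. Samples labelled with the same replicate number were not shown to be paired. Over 8271 genes of at least 20 CPM, the correlations of their deviations were 0.04, 0.04 and 0.21 for replicates 1, 2 and 3. Those of differently numbered samples lay between -0.15 and 0.12, and between -0.15 and -0.079 where replicate 3 was 1 of the pair. Whether samples of the same number share an effect of handling was not tested.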

Additional observations from a re-analysis of the deposited data

How the results depend on the processing

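The directions of Myc, Max, Mxd1, Mxd4, Mxi1 and Mga held in the 14 alternatives that recompute the fold change. Over all named genes and alternatives, 605 results (those with an unchanged fold change included) kept direction and side of the threshold, 138 kept direction only and 12 turned sign. The sign turns belong to Mxd3 (-0.43 to 0.054 with libraries left out), Mnt (0.00043 with library total scaling, -0.15 to 0.052 with libraries left out) and Mlxipl (0.00026 and -0.12 to 0.11). The cause was not tested. The added library total scaling and the Mxd family ratio were chosen after seeing the data. No scaling moved the median of all genes by over 0.1.

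Without the trend, 0 members fell and 0 rose. With DESeq2 0 rose, and 1 rose with a pseudocount of 0.1 and with quantile normalization. The replicate block left Myc lower and 0 members higher (limma adjusted p = 0.054 for Mxd4 and 0.056 for Mxi1), and it moved no other count by over 1.5 times. With libraries left out, 0 to 1 members fell and 0 to 2 rose. Myc-activated genes that fell numbered 25 with DESeq2, 12 without the trend and 15 to 33 with libraries left out, and 0 to 3 rose. Repressed genes gave 1 to 2 lower and 1 to 3 higher with libraries left out, and 1 higher without the trend. Cofactors gave 1 lower with DESeq2, 0 lower and 0 higher without the trend, and 0 to 3 lower and 0 to 4 higher with libraries left out. Turnover genes gave 2 lower and 0 higher without the trend, 0 higher with DESeq2, 1 higher with quantile normalization, and 1 to 6 lower and 0 to 2 higher with libraries left out. Corepressors gave 0 lower and 1 higher without the trend, 2 higher with DESeq2, and 0 to 2 lower and 0 to 3 higher with libraries left out. PRC1.6 partners gave 1 lower with DESeq2, 0 without the trend and 0 to 2 with libraries left out. Over all genes, 1117 fell and 1066 rose with DESeq2, 616 and 824 without the trend, and 520 to 1371 and 494 to 1464 with libraries left out.

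Single libraries moved small counts. Without siAldoa replicate 1, 0 turnover genes rose and 1 PRC1.6 partner fell. Without siAldoa replicate 2, 3 turnover genes fell and 1 rose. Without siAldoa replicate 3, 2 corepressors and 1 turnover gene rose and 2 repressed genes fell. Without siCtrl replicate 1, 23 activated genes fell and 1 turnover gene rose. Without siCtrl replicate 2, 2 corepressors and 1 turnover gene rose and 1 PRC1.6 partner fell. Fits without a whole replicate have fewer samples. Depth limits Mxd1, Mxd3 and Mlxipl.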

Other observations

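Over all genes of the table with a RefSeq promoter entry, 1229 held the E-box core CACGTG in the window. Of these, 174 (14.2%) fell and 191 (15.5%) rose, with a median log2 fold change of 0.024. Of 9964 genes without the motif, 1030 (10.3%) fell and 1186 (11.9%) rose, with a median of 0.0076. Genes with the motif were thus called more often in both directions, with medians near 0. These are shares of genes and were not tested. Expression level, which affects how often a gene passes the test, was not matched between these groups.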
